A study of Mus musculus with 6 samples.

Results

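The nuclear genes of the respiratory chain were compared between untreated and amisulpride-treated arthritic synovial fibroblasts (SFs). Members were the protein-coding genes whose names begin with Nduf and a subunit letter and number, Sdh with a subunit letter, Uqcr, Cox with a number from 4 to 8, or Atp5. The rule found 88 of the 49548 genes in the table, of which 21960 were protein-coding. By name stem, 37 belonged to complex I (Nduf), 8 to complex II (Sdh), 8 to complex III (Uqcr), 18 to complex IV (Cox) and 17 to complex V (Atp5). The stems also caught the assembly factors Sdhaf1 to Sdhaf4, as well as Atp5s and Atp5sl, which are not subunits of the enzymes. The SFs came from ankle joints of hTNFtg mice, which carry a human TNF transgene and develop polyarthritis. There were 3 libraries labelled as having had no treatment and 3 labelled with 500 μM amisulpride for 48 h, all of them hTNFtg. The study's methods give 8-week-old CBA C57BL/6J mice, depletion of CD45+ cells at passage 1 and 3 biological replicates of cultured cells, and speak of vehicle where the labels give no treatment. What drives the transgene, and whether animals were pooled, is not given in the sources used here.

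Oxidative phosphorylation is carried out by complexes in the inner mitochondrial membrane. Complex I oxidises NADH, complex II oxidises succinate and is also an enzyme of the citrate cycle, complex III passes electrons from ubiquinol to cytochrome c, complex IV reduces oxygen, and complex V is the ATP synthase. Most subunits are encoded in the nucleus and imported, while a core set is encoded by mitochondrial DNA. Several nuclear subunits have tissue isoforms, among them muscle, testis and hypoxia forms. Amisulpride is an antipsychotic drug whose known targets are receptors for dopamine and for serotonin. No gene of the mitochondrial genome was listed in the table, so the values describe the nuclear part of the chain.

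The kit primes at the 3′ end of mRNA, so a longer transcript does not collect more reads, and levels of different genes are compared as normalised counts with no correction for length. Approximate depth was 2.52 to 4.71 M reads per library, with the depth of untreated replicate 1 uncertain. Amisulpride replicate 3 was the shallowest library, with 1 read worth 1.79 normalised counts against 0.834 to 1.34 in the others, and it stood apart. Across the 12614 genes tested, 494 (3.92%) were at least 2 times higher in it than in any other library, against 9 to 88 genes for each of the other 5 libraries. All 12 fibroblast markers were tested, and their summed level was 44812 to 59702 normalised counts in untreated and 51780 to 91324 in treated libraries, most of it from collagens and Vim. Prg4, the lubricin gene of the lining, was lower in treated SFs at an unadjusted p in limma of 0.00924 (log2 fold change -0.92). Lum and Pdpn had log2 fold changes of -1.07 and -0.67, and Fap, Col1a2, Col3a1 and Col1a1 had 1.12, 0.71, 0.71 and 0.49. Of the 12, 8 were above 0 and 4 below, with a median of 0.21. Of the 10 myeloid markers, 2 had a log2 fold change above 0 and 8 below, with a median of -0.29. These markers summed to 2744 to 5265 in untreated and 2588 to 4866 in treated libraries. Cd14 and Csf1r among them were lower in treated SFs at an unadjusted p in limma of 0.00223 and 0.0486, Adgre1 and Cd68 had log2 fold changes of 0.83 and 0.31, and the leukocyte marker Ptprc stood at 5 to 38 normalised counts in the 6 libraries. None of the 6 endothelial markers passed the filter on low values. Higd1b of the 8 pericyte markers and Ucp1 of the 4 brown fat markers were at 0 in every library. Of the 3 tested pericyte markers, Mcam was lower in treated SFs at an unadjusted p in limma of 0.000576. The other tested ones, Cspg4 and Notch3, had log2 fold changes of 0.21 and -0.08, and the median of the list was -0.08. The part of these markers in the values of the respiratory chain was not tested. In such bulk samples fewer cells of a type and less RNA per cell cannot be told apart.

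The question was whether the mRNA of the chain, or of 1 complex within it, differed after 48 h of amisulpride. Of the 88 members, 83 had at least 10 normalised counts in at least 3 of the 6 libraries and were tested, namely all members of complexes I, II, III and V and 13 of the 18 of complex IV. In limma 0 of the 83 had an adjusted p under 0.05, against 36 of all genes tested (0.285%, of which 0.0951% higher and 0.19% lower), and the lowest adjusted p of a member was 0.291. The study's thresholds, which ask for a log2 fold change of 1 or more in either direction and an unadjusted p under 0.05, were passed by 1 member, Cox6a2 (1.2%), against 5.7% of all genes, 2.69% higher and 3.01% lower. An unadjusted p under 0.05 in limma was found for 2 members, Cox6a2 and Ndufa4l2 (2.41%), against 10.9% of all genes, and both were higher in treated SFs. Of all genes 5.11% were higher and 5.77% lower at that level. Cox6a2, at 5, 9 and 9 normalised counts untreated and 14, 36 and 23 treated, passed the filter only through its treated libraries. The filter thus favoured a higher treated value for it. The members were read more precisely than most genes, with a median level of 480.7 normalised counts against 81.3 and a median SE of 0.27 against 0.34 on the log2 scale.

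These counts moved with single libraries and with the pairing. With the replicate number as a block, 6 members had an unadjusted p under 0.05 in limma, namely Atp5j, Cox6a2, Ndufa11, Ndufa4l2, Ndufb5 and Ndufs5 (7.23%, against 14.6% of all genes in that fit). The unadjusted p in that fit was 0.0133 for Atp5j, 0.0408 for Ndufa11, 0.0497 for Ndufb5 and 0.0238 for Ndufs5, which the fit without the block left above 0.05. Cox6a2 and Ndufs5 made up the 2 past the study's thresholds (2.41%, against 6.61%). Without amisulpride replicate 1, 8 members had an unadjusted p under 0.05 (9.76%, against 13.2% of all genes in that fit) and 6 passed the study's thresholds (7.32%, against 8.11%). No member passed them without amisulpride replicate 2 or without amisulpride replicate 3 (against 5.92% and 6.25% of all genes). Cox6a2 failed the filter in these fits and was not tested. Without untreated replicate 2, 2 members passed them (2.41%, against 5.83%). The number of members with an adjusted p under 0.05 was 0 in each of these fits, while the count over all genes was 263 with the block, 0 without untreated replicate 2 or 3, 1 without untreated replicate 1, and 17, 6 and 120 without amisulpride replicates 1, 2 and 3. For 64 of the 83 members (77.1%) the 95% interval of the log2 fold change lay between -1 and 1, against 40.7% of all genes. A doubling or a halving was therefore outside the interval for those 64, and inside it for the other 19.

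**Figure D1:**
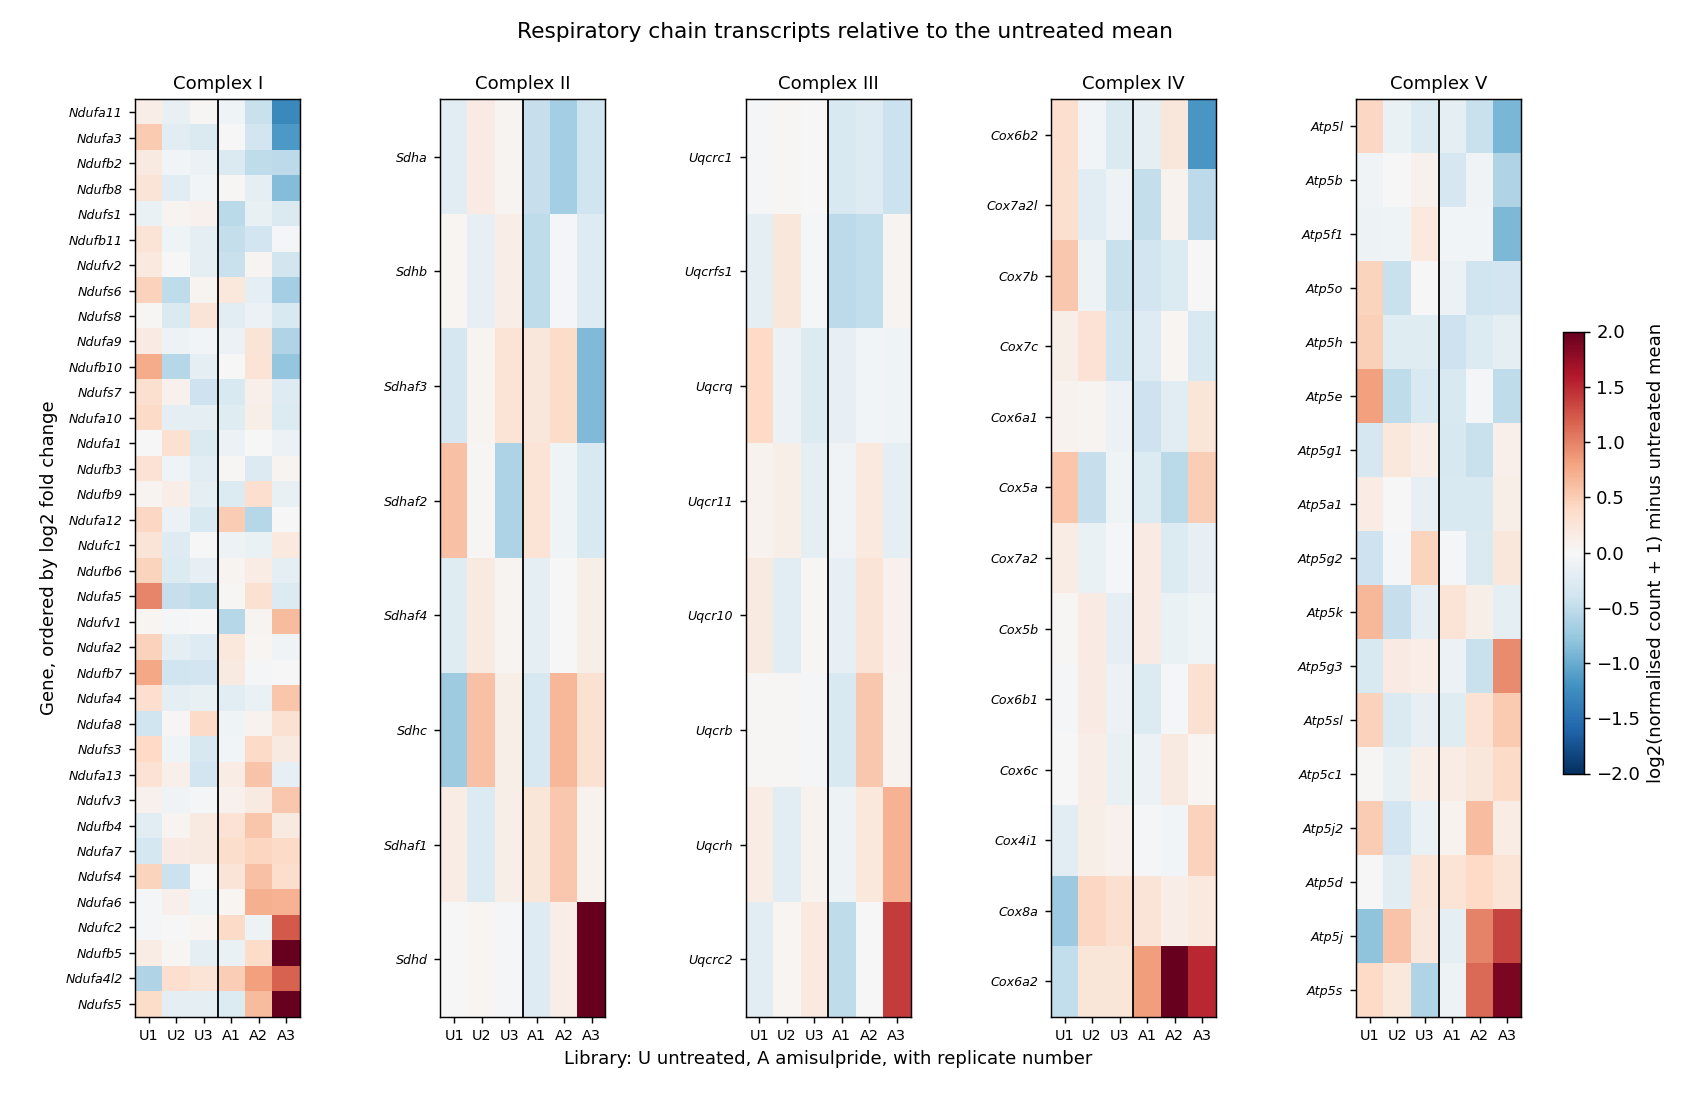
Heatmaps of 82 tested members by complex. Rows are genes ordered by log2 fold change, columns are untreated (U) and amisulpride (A) libraries with their replicate number, and colour gives log2(normalised count + 1) minus the untreated mean, drawn at the end of the scale beyond 2. Deep red cells are few and stand mostly in the column of amisulpride replicate 3, in the rows of Ndufs5, Ndufb5, Sdhd and Uqcrc2 among others.

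The medians of the 5 complexes lay close to one another and to 0. The median log2 fold change of the tested members was -0.02, with 38 above and 45 below 0 (45.8% above, against 50.1% of all genes), and the median of all genes tested was 0. It was 0.01 for complex I (19 above, 18 below), -0.03 for complex II (3 above, 5 below) and 0.02 for complex III (4 above, 4 below). Complex IV had a median of -0.09 (4 above, 9 below) and complex V one of -0.03 (8 above, 9 below). Without Atp5s and Atp5sl, which are not subunits, the median of complex V was -0.17. The middle 50% of members lay between -0.22 and 0.21, inside the range of -0.31 to 0.32 of all genes. Members were chosen with earlier results known and are not replicates, so the complexes were not tested against each other. The treated and untreated values of 10 members did not overlap (12%), 6 of them higher and 4 lower in treated SFs, against 16.5% of all genes, 7.8% higher and 8.66% lower. The 6 higher ones were Atp5c1, Atp5d, Cox6a2, Ndufa4l2, Ndufa7 and Ndufb4, and the 4 lower ones were Ndufb2, Ndufs1, Sdha and Uqcrc1. Cox6a2 among them passed the filter only through its treated libraries.

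**Figure D2:**
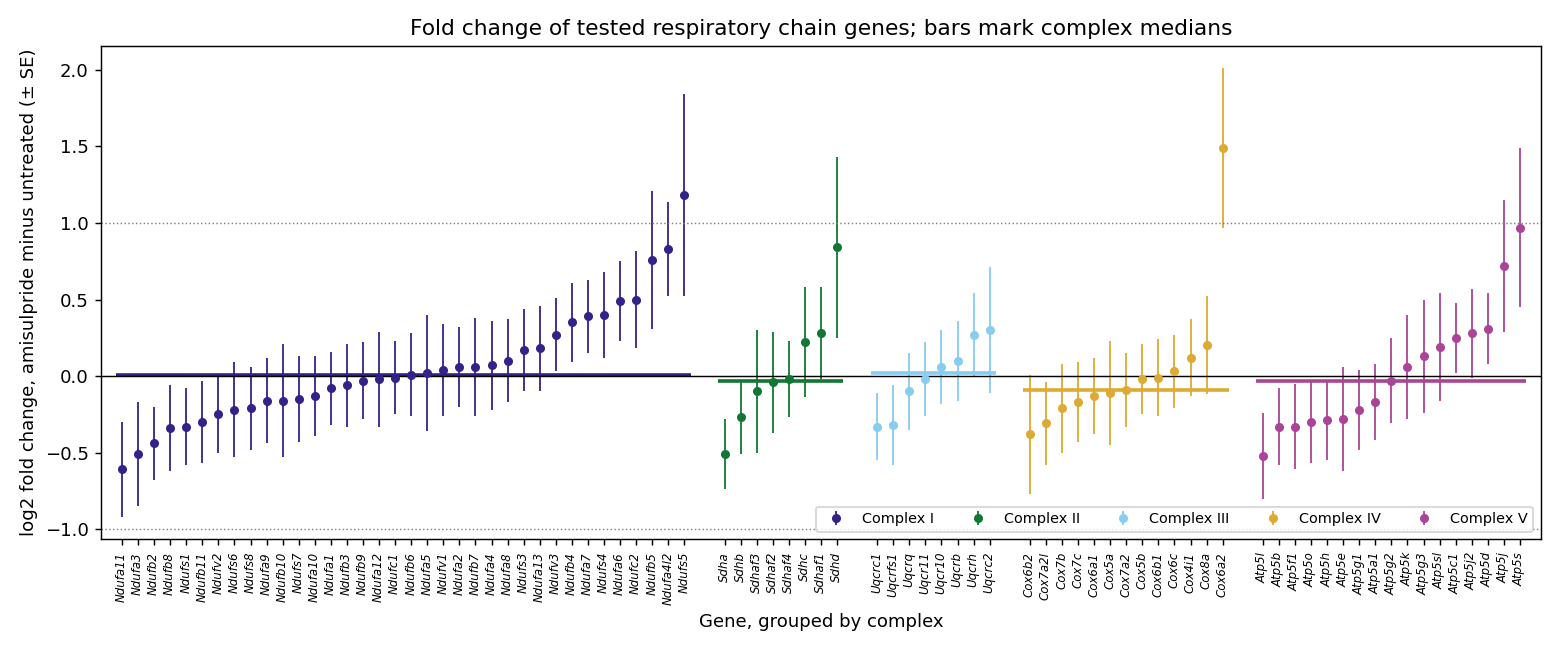
Log2 fold change (amisulpride minus untreated) of 82 tested members with the SE, grouped by complex, with a horizontal bar at the median of all tested members of each complex. The 5 medians lie between -0.09 and 0.02, and Cox6a2 at 1.49 and Ndufs5 at 1.18 are the only points above 1.

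The summed level of the 88 members was 67084, 64769 and 63396 normalised counts in untreated replicates 1 to 3 and 60260, 62315 and 80741 in amisulpride replicates 1 to 3. These sums made up 1.53% to 1.79% of each library. The highest sum was that of amisulpride replicate 3, and the other 2 treated sums lay below all untreated ones. Amisulpride replicate 3 also had the largest total over all genes, at 4504242 normalised counts against 3832980 to 3982723 in the others. The log2 ratio of the group means was 0.06 with that library and -0.09 without it. The shift was widest in complex II, with sums of 2255, 2839 and 2598 untreated and 2020, 2562 and 4189 treated, a log2 ratio of 0.19 that became -0.16 without amisulpride replicate 3. Complex V had sums of 21458, 21866 and 22346 untreated and 19417, 18392 and 28367 treated, and its ratio moved from 0.01 to -0.21. For complexes I, III and IV the ratios were 0.14, 0.08 and -0.01 with that library and 0.02, -0.05 and -0.06 without it. As a share of its library, amisulpride replicate 3 was highest in complexes II (0.093%) and V (0.63%). In complex I it had 0.57% against 0.589% in untreated replicate 1, and in complex III 0.141%, the same as amisulpride replicate 2. In complex IV its share of 0.359% was the lowest. Untreated replicate 1 held the highest value of 29 members (34.9%, against 19.4% of all genes), and amisulpride replicate 1 that of 3 (3.61%, against 12.7%). The members' median deviation in untreated replicate 1 was 0.15 on the log2 scale over all complexes and 0.26 in complex I, against 0.02 over all genes.

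**Figure D3:**
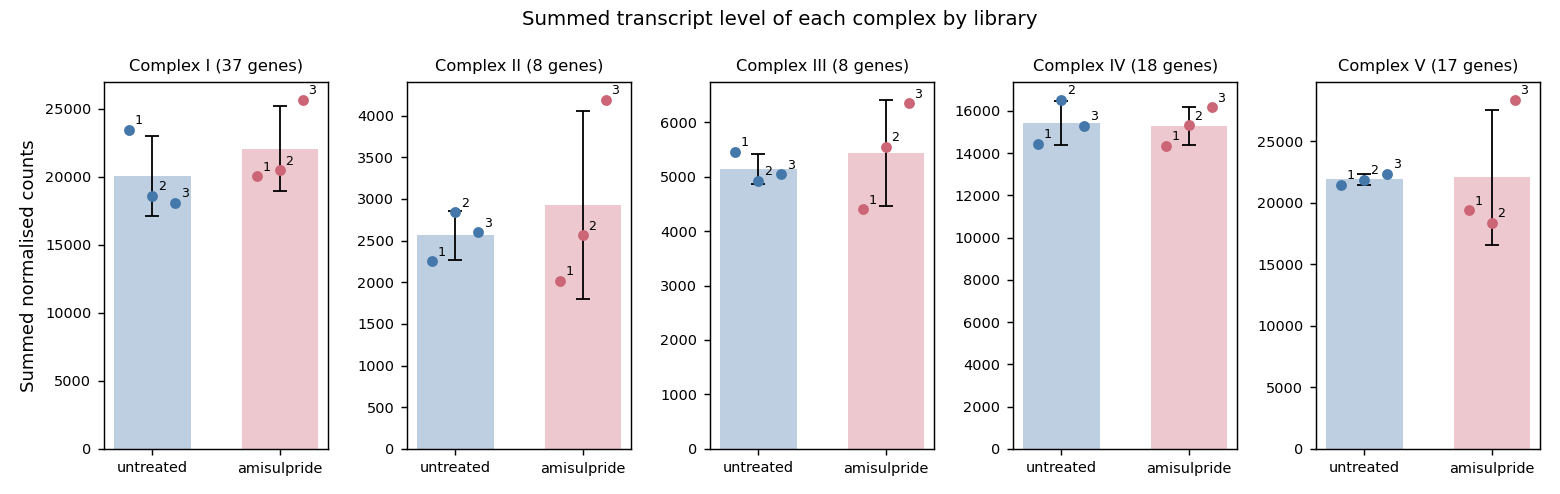
Summed normalised counts of each complex. Bars are group means, error bars the SD of 3 libraries, and numbered points the single libraries. Amisulpride replicate 3 is the highest point in complexes I, II, III and V. The sums are not divided by the library total, which was largest in that library. The other 2 treated libraries lie among or below the untreated ones, except that amisulpride replicate 2 lies above them in complex III.

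Complex I carries core NADH dehydrogenase subunits of the matrix arm, which are found among the Ndufs and Ndufv genes, and accessory subunits. The member with the lowest p was Ndufa4l2 (ENSMUSG00000040280, mm10 chromosome 10, 127514939 to 127517152, plus strand), a relative of Ndufa4 known as a hypoxia-induced gene and as a pericyte gene. It stood at 255, 489 and 469 normalised counts in untreated and at 549, 689 and 879 in treated SFs. The 3 treated values lay above the 3 untreated ones, and untreated replicate 1 was the lowest. The log2 fold change was 0.83 ± 0.31 (SE), with an unadjusted p of 0.0192 and an adjusted p of 0.326 in limma. Without untreated replicate 1 it was 0.53, with an unadjusted p of 0.0874 in limma. With the replicate number as a block, Ndufa4l2 had an unadjusted p of 0.00427 and an adjusted p of 0.105 in limma. Its end overlaps Shmt2 on the other strand, which stood at 217, 163 and 300 untreated and 144, 137 and 227 treated, and whether the counting used strand is not given. Its relative Ndufa4, which is nowadays placed in complex IV, had 224, 155 and 160 untreated and 152, 162 and 261 treated, so the groups overlapped and the log2 fold change was 0.07 ± 0.29.

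Ndufa11, an accessory subunit of the membrane arm, had 480, 395 and 446 normalised counts untreated and 412, 321 and 179 treated. Its log2 fold change was -0.61 ± 0.31, with an adjusted p of 0.513 in limma, and the lowest value was that of amisulpride replicate 3. Ndufa6, an accessory subunit of the LYR protein family, had 550, 600 and 527 untreated and 575, 916 and 909 treated. Amisulpride replicates 2 and 3 stood above all untreated values and replicate 1 among them, for a log2 fold change of 0.49 ± 0.26 and an adjusted p of 0.528 in limma. The most abundant member of the complex was Ndufb3, a small accessory subunit that made up 22% of the complex's sum. It had 5762, 4411 and 4065 untreated and 4794, 3872 and 4880 treated, a log2 fold change of -0.06 ± 0.27.

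Of the other complex I members without overlap, Ndufa7 had 640, 910 and 926 untreated and 1036, 1096 and 1067 treated (log2 fold change 0.39 ± 0.24), and Ndufb4 had 95, 116 and 126 untreated and 137, 165 and 127 treated (0.35 ± 0.26). Both are accessory subunits. Ndufb2, another of them, had 263, 224 and 214 untreated and 190, 163 and 161 treated (-0.44 ± 0.24). Ndufs1, the largest iron-sulfur subunit of the matrix arm, had 123, 141 and 144 untreated and 93, 122 and 111 treated (-0.33 ± 0.25). In each of these 4 genes the gap between the groups was smaller than the spread within 1 group, and no adjusted p in limma was under 0.54. Among the core matrix-arm subunits Ndufs1, Ndufs3, Ndufs7, Ndufs8, Ndufv1 and Ndufv2, the log2 fold changes ran from -0.33 to 0.17. The 95% interval lay between -1 and 1 for 28 of the 37 members of complex I.

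Complex II is the smallest complex, and all its subunits are nuclear. Sdha (ENSMUSG00000021577, chromosome 13, 74322254 to 74350280, minus strand), the flavoprotein that holds the succinate site, stood at 669, 880 and 816 normalised counts in untreated and at 570, 491 and 592 in treated SFs. All treated values lay below all untreated ones. The log2 fold change was -0.51 ± 0.23, with a 95% interval of -1.02 to 0.00, an unadjusted p of 0.0507 and an adjusted p of 0.46 in limma. The unadjusted p fell under 0.05 in limma without a filter, with quantile normalisation, with equal totals, with library weights and without untreated replicate 1 or amisulpride replicate 3, where the log2 fold change was -0.51 to -0.62. It was 0.16 or 0.128 when untreated replicate 2 or 3 was left out, 0.0784 or 0.147 when amisulpride replicate 1 or 2 was, and 0.0589 with the block. Sdhb, the iron-sulfur subunit that passes the electrons on, had 496, 433 and 530 untreated and 340, 471 and 403 treated. The groups overlapped, and the log2 fold change was -0.27 ± 0.24 and the adjusted p 0.727 in limma.

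The membrane anchors Sdhc and Sdhd, which bind ubiquinone, showed the spread of single libraries. Sdhc had 303, 749 and 538 normalised counts untreated and 397, 790 and 614 treated. In both groups replicate 1 was the lowest and replicate 2 the highest, and the log2 fold change was 0.22 ± 0.36. Sdhd had 348, 356 and 337 untreated and 289, 379 and 2203 treated, with a log2 fold change of 0.84 ± 0.59 that became -0.07 without amisulpride replicate 3. The assembly factors Sdhaf1 to Sdhaf4 had log2 fold changes of 0.28, -0.04, -0.10 and -0.02, and their levels, from 21 to 203 normalised counts over the 6 libraries, lay below those of the subunits.

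In complex III the core protein Uqcrc1 had 606, 638 and 630 normalised counts untreated and 508, 523 and 465 treated. The groups did not overlap, and the spread within each was small, at 16.7 and 30.1 normalised counts (SD, n = 3) around means of 624.7 and 498.7. The log2 fold change was -0.33 ± 0.22 with an unadjusted p of 0.166 and an adjusted p of 0.638 in limma, whose SE draws on the spread of other genes at that level. The Rieske iron-sulfur protein Uqcrfs1 had 431, 583 and 484 untreated and 343, 351 and 515 treated, a log2 fold change of -0.32 ± 0.26. Amisulpride replicate 3 lay among the untreated values and the other 2 treated libraries below them. Uqcrh, the acidic hinge protein that helps cytochrome c to dock, was the most abundant member, with 34.2% of the complex's sum. It had 1788, 1385 and 1685 untreated and 1506, 1867 and 2614 treated, a log2 fold change of 0.27 ± 0.27. The other core protein, Uqcrc2, had 205, 246 and 276 untreated and 168, 242 and 635 treated, and its log2 fold change of 0.30 ± 0.41 became -0.25 without amisulpride replicate 3. Uqcr10, Uqcr11, Uqcrb and Uqcrq, small accessory subunits, had log2 fold changes of 0.06, -0.02, 0.10 and -0.10.

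Complex IV has several tissue isoforms, each used by particular cell types. Cox6a2 (ENSMUSG00000030785, chromosome 7, 128205435 to 128206387, minus strand), the heart and skeletal muscle form of subunit VIa, stood at 5, 9 and 9 normalised counts in untreated and at 14, 36 and 23 in treated SFs. All treated values lay above all untreated ones. The log2 fold change was 1.49 ± 0.52, with an unadjusted p of 0.0147 and an adjusted p of 0.291 in limma. With the replicate number as a block these were 0.00911 and 0.154. The level was low, and the gene passed the filter only through its treated libraries, so it could not be tested without any 1 of them or with a minimum of 30. The general form Cox6a1 had 939, 932 and 822 untreated and 669, 771 and 1059 treated, a log2 fold change of -0.13 ± 0.25. Cox6a2 thus remained the minor form in every library. Of the 10 skeletal muscle markers 2 passed the filter, and the summed level of the 10 was 66, 29 and 20 untreated and 48, 62 and 28 treated. The troponin gene Tnni2 had 13, 2 and 0 untreated and 13, 35 and 4 treated (log2 fold change 1.97 ± 1.03, unadjusted p 0.0811 in limma), and the myosin light chain gene Mylpf, not tested, had 6, 2 and 0 untreated and 7, 16 and 11 treated. The muscle actin gene Acta1 had 44, 19 and 14 untreated and 23, 8 and 11 treated, and Myh1, Myh2, Myh4 and Myod1 were at 0 in every library. The part of muscle transcripts in the value of Cox6a2 was not tested. The overlapping gene Itgad on the other strand was also at 0 in every library.

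The other tissue isoforms of complex IV were low. Cox4i2, the lung and hypoxia form of subunit IV, had 4 normalised counts in untreated replicate 1 and 0 in the other 5 libraries, where a count of 0 allows up to 2.5 to 5.37 normalised counts. Cox7a1, the heart and muscle form of subunit VIIa, had 14, 5 and 3 untreated and 4, 0 and 5 treated. Cox8b, a heart and brown fat form of subunit VIII, and Cox8c, a testis form, were at 0 in every library, and Cox7b2 had 4 in amisulpride replicate 3 only. These 5 members were not tested. Cox6b2, a testis form of subunit VIb, had 73, 55 and 47 untreated and 50, 67 and 25 treated, and its log2 fold change of -0.38 ± 0.39 became 0.01 without amisulpride replicate 3.

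The general isoforms were abundant, and their groups overlapped. Cox8a was the most abundant, with 29.8% of the complex's sum, and had 2501, 5495 and 5166 normalised counts untreated and 4972, 4557 and 4767 treated. Untreated replicate 1 lay far below the other 5 libraries, and the log2 fold change was 0.20 ± 0.32. Cox4i1 had 1301, 1638 and 1604 untreated and 1460, 1456 and 2079 treated (log2 fold change 0.12 ± 0.25). Cox6b1 had 1462, 1667 and 1373 untreated and 1234, 1448 and 1852 treated (-0.01 ± 0.25), and Cox7a2 had 490, 403 and 434 untreated and 495, 365 and 395 treated (-0.09 ± 0.24). Cox4i1 and Cox6b1 were highest in amisulpride replicate 3, Cox8a in untreated replicate 2 and Cox7a2 in amisulpride replicate 1. Cox7a2l, which encodes an assembly factor of respiratory supercomplexes, had 3077, 2088 and 2297 untreated and 1764, 2581 and 1707 treated, a log2 fold change of -0.31 ± 0.27 and an adjusted p of 0.732 in limma. The remaining tested members Cox5a, Cox5b, Cox6c, Cox7b and Cox7c ran from -0.21 to 0.03.

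**Figure D4:**
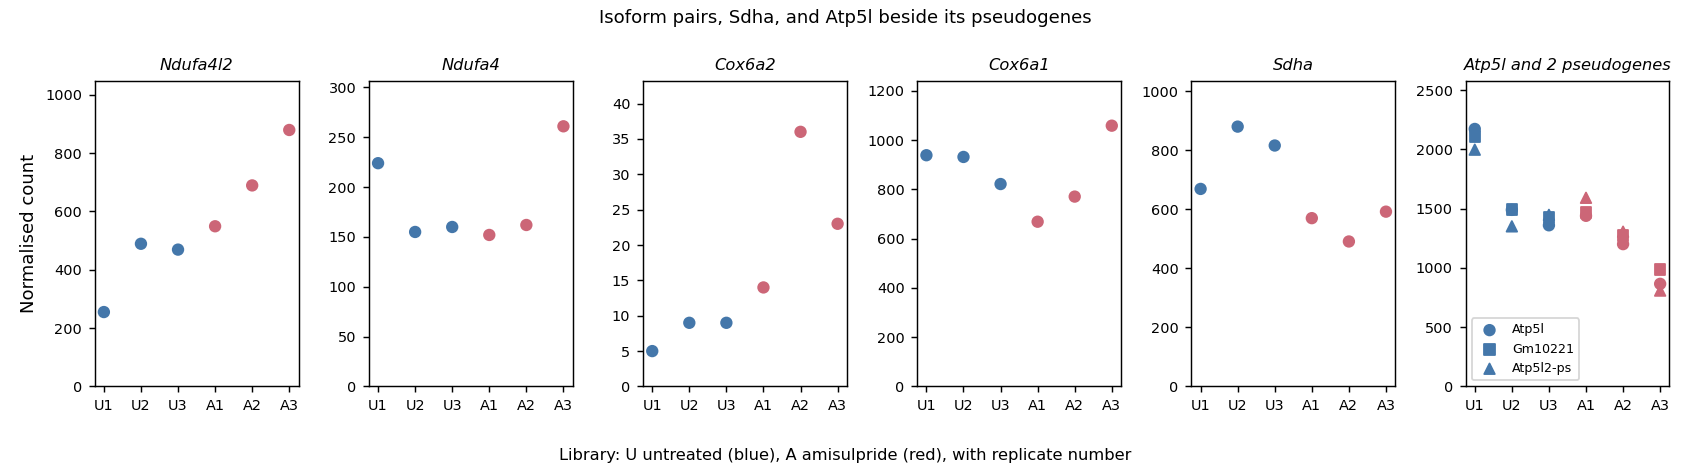
Normalised counts of selected members in each library, with a separate axis from 0 in each panel. Untreated (U) libraries are blue and amisulpride (A) libraries red. Ndufa4l2 and Cox6a2 stand higher and Sdha lower in all 3 treated libraries, while Ndufa4 and Cox6a1 overlap, and the 2 pseudogenes follow Atp5l from library to library.

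In complex V, the c ring of the ATP synthase is encoded by Atp5g1, Atp5g2 and Atp5g3, whose mature proteins are the same. Atp5g3 was the most abundant member of the whole chain and made up 43.2% of its complex's sum. It had 6953, 9689 and 9462 normalised counts untreated and 7973, 6351 and 16595 treated, a log2 fold change of 0.13 ± 0.37. The 2 ends of this range were both treated libraries. Atp5g1 had 296, 431 and 408 untreated and 299, 273 and 399 treated (log2 fold change -0.22 ± 0.26), and Atp5g2 had 686, 898 and 1253 untreated and 890, 754 and 1072 treated (-0.03 ± 0.28). The order Atp5g3, Atp5g2, Atp5g1 held in every library.

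The members of complex V with the lowest p were Atp5s, Atp5l and Atp5j. Atp5s, which encodes coupling factor B, had 23, 20 and 11 normalised counts untreated and 16, 39 and 66 treated, a log2 fold change of 0.97 ± 0.52 and an adjusted p of 0.54 in limma. Atp5l, subunit g of the membrane part, had 2173, 1490 and 1360 untreated and 1440, 1201 and 866 treated, a log2 fold change of -0.52 ± 0.28 and an adjusted p of 0.545 in limma. Atp5j, coupling factor VI of the peripheral stalk, had 119, 311 and 243 untreated and 183, 416 and 533 treated, a log2 fold change of 0.72 ± 0.43 and an adjusted p of 0.586 in limma. In each of these 3 genes amisulpride replicate 1 lay among the untreated values. Within the pairs of replicate number Atp5j was higher and Atp5l lower in all 3, and with the block the unadjusted p in limma was 0.0133 for Atp5j, 0.056 for Atp5l and 0.0659 for Atp5s. The log2 fold changes depended on single libraries. That of Atp5j was 1.17 when amisulpride replicate 1 was left out, 0.41 when replicate 3 of that group was and 0.32 when untreated replicate 1 was, with unadjusted p of 0.0147, 0.347 and 0.473 in limma. That of Atp5s was 1.51 without amisulpride replicate 1 and 0.52 without amisulpride replicate 3, with unadjusted p of 0.00964 and 0.332 in limma. The catalytic subunit Atp5b had 2412, 2536 and 2688 untreated and 2021, 2433 and 1668 treated, a log2 fold change of -0.33 ± 0.25. The subunits of the central stalk Atp5c1 and Atp5d did not overlap, with 282, 249 and 303 untreated against 306, 325 and 360 treated, and 716, 616 and 858 untreated against 874, 957 and 870 treated. Their log2 fold changes were 0.25 ± 0.23 and 0.31 ± 0.23, and neither had an adjusted p under 0.67 in limma.

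Single members stood far above all other libraries in amisulpride replicate 3. By a rule of at least 2 times the highest of the other 5 libraries, 5 of the 83 tested members (6.02%) were counted in that library, against 3.92% of all genes. None of the 83 was counted in any other library, where the rule counted only 0.0713% to 0.698% of all genes. The members counted in amisulpride replicate 3 and described here are Ndufs5 and Ndufb5 of complex I, Sdhd of complex II and Uqcrc2 of complex III. Ndufs5, an accessory subunit of the intermembrane space side, had 360, 244 and 245 normalised counts untreated and 230, 432 and 2514 treated, the last of them 5.82 times the next highest. Sdhd, described above, reached 5.81 times the next highest. Ndufb5, an accessory subunit of the membrane arm, had 788, 727 and 630 untreated and 647, 921 and 2931 treated (3.18 times), and Uqcrc2 reached 2.3 times the next highest.

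The excess in these genes rested on many reads, approximately 1405 for Ndufs5, 1231 for Sdhd, 1638 for Ndufb5 and 355 for Uqcrc2 in that library, where the floor was 5.37 normalised counts. Other subunits of the same complex did not share it in complex II. Beside Sdhd, the other complex II subunits Sdha, Sdhb and Sdhc had 592, 403 and 614 normalised counts there, none of them the highest of the 6 libraries. Amisulpride replicate 3 held the highest value of 19 members (22.9%), against 24.8% of all genes, and the lowest of 16 (19.3%), against 24% of all genes. Just outside the rule lay Ndufc2 at 1.81, Atp5g3 at 1.71 and Atp5s at 1.69 times the next highest. Without this library the log2 fold changes were 0.18 for Ndufs5, 0.12 for Ndufb5, -0.07 for Sdhd and -0.25 for Uqcrc2. With all 6 libraries that of Ndufs5 was 1.18 ± 0.66, with an adjusted p of 0.561 in limma, and that of Ndufb5 was 0.76 ± 0.45.

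**Figure D5:**
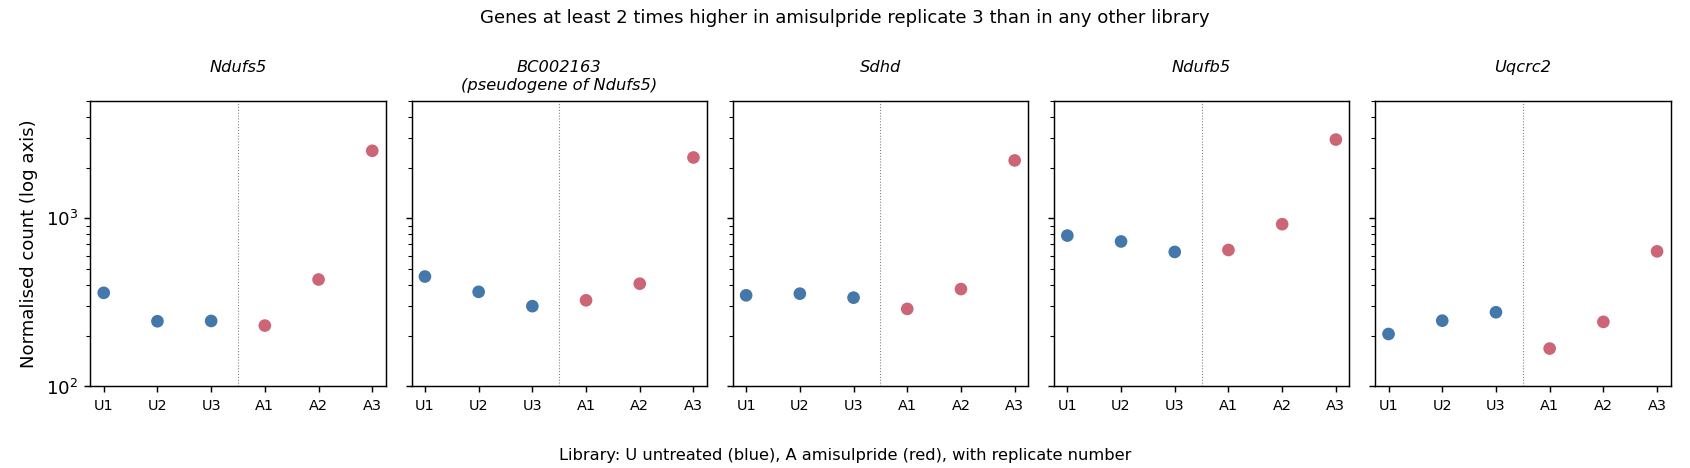
Normalised counts, on a log axis shared by all panels, of 4 members counted in amisulpride replicate 3 and of the pseudogene BC002163. Untreated (U) libraries are blue and amisulpride (A) libraries red. In each panel 1 red point, amisulpride replicate 3, lies above 5 points that lie close together.

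Ndufs5 has a near-identical processed pseudogene, BC002163, and the pair is printed here because the same excess appears under both names. Over the 319 bases of the pseudogene transcript, 317 were identical to Ndufs5 (99.4%). The 30 bases below hold 1 of the differences, marked by the capital, and are written 5′ to 3′ on the strand of each gene from GENCODE transcripts of mm10. They come from the coding sequence of Ndufs5 on the minus strand (chr4:123715960-123715989) and from the pseudogene on the plus strand (chr16:42955721-42955750).
Ndufs5: gctcggtgccacgcAtttgaaaaagagtgg
BC002163: gctcggtgccacgcGtttgaaaaagagtgg
The substitution is A15G, counted from 1 at the 5′ end of the window with the base of Ndufs5 first. BC002163 was listed at 450, 365 and 300 normalised counts untreated and 325, 408 and 2294 treated. Both genes were thus at similar levels in all 6 libraries, and reads of one can be counted under the other. Sdhd, Ndufb5 and Uqcrc2 had no other annotated gene that shared 5% or more of the 25-base words of their last 300 bases.

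Other members also shared part of their end words with another annotated gene. Of the 88 members, 34 shared at least 5% of them. At that level the matches need not be copies, since those of Atp5g1 included the protein-coding genes Map4 and Furin. At least 30% was shared by 11 members, of which 3 were of complex I, 1 of complex III, 3 of complex IV and 4 of complex V. At least 50% was shared by 6 members, Ndufs5 among them. The share over all genes was not counted. Of the copies that shared at least 30%, 19 were listed, and in 7 of these the mean level was at or above that of the member. Atp5l had 2 pseudogenes at about its own level, Gm10221 with 2111, 1495 and 1425 normalised counts untreated and 1467, 1273 and 986 treated, and Atp5l2-ps with 1998, 1351 and 1448 untreated and 1592, 1306 and 809 treated. Both ran with Atp5l from library to library, with log2 fold changes of -0.43 and -0.41 beside its -0.52. For Cox7c the pseudogene Gm12338 was listed at a mean 4.56 times that of the gene. The values of Ndufs5, Ndufs3, Ndufb11, Uqcrb, Cox5b, Cox6c, Cox7c, Atp5g2, Atp5h, Atp5l and Atp5o are uncertain for this reason. A gene on the same strand overlaps the end of 5 members, namely Atp5o, Cox7c, Ndufa13, Ndufb8 and Cox4i1, the last with Gm20388, which had 1694, 1523 and 1216 untreated and 1398, 1420 and 5707 treated.

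The promoters of the members were searched for motifs of factors known to act on respiratory chain genes. RefSeq promoters (GRCm38.p6, 250 bases before to 50 after each start) matched 70 of the 88 members, with 75 promoters. The NRF1 motif, GCGCA followed by any base and GCGC, searched on both strands, was in 20 of the 75 (26.7%), against 4.6% of all 32851 promoters. The genes with it were 7 of complex I, 4 of complex II, 1 of complex III, 1 of complex IV and 6 of complex V. The YY1 motif AAGATGGC was in 9 (12%, against 2.75%), 7 of complex I and 2 of complex V, the ETS motif CCGGAAGT of GABPA in 5 (6.67%, against 3.89%) and the ERR motif TCAAGGTCA in 2 (2.67%, against 0.423%). The members' promoters had a median GC content of 57.7% against 52.7%. The windows below show the NRF1 match, in capitals, in members with a low p or an excess in amisulpride replicate 3, each 5′ to 3′ on the strand of its gene. They are Ndufs5 on the minus strand (chr4:123718265-123718294), Sdhd on the minus strand (chr9:50603909-50603938), Sdha on the minus strand (chr13:74350276-74350305) and Ndufa11 on the plus strand (chr17:56717692-56717721), where the motif begins 98, 79, 55 and 60 bases before the start.
Ndufs5: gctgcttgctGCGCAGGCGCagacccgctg
Sdhd: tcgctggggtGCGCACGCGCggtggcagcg
Sdha: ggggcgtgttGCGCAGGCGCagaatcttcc
Ndufa11: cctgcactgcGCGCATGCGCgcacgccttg
The motif was thus shared by members whose values went in either direction. It was also in Ndufa6 and Uqcrc1, with log2 fold changes of 0.49 and -0.33, whose matches are not printed. Without amisulpride replicate 3 the log2 fold changes of Ndufs5 and Sdhd were 0.18 and -0.07. Ndufb5, also counted in amisulpride replicate 3, held none of the 4 motifs in this window, which says only that these letters were not there. Nrf1 itself had 59, 85 and 81 normalised counts untreated and 52, 124 and 129 treated, a log2 fold change of 0.34 ± 0.37.

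Lists of genes that build and feed the chain were examined beside the members. None of the genes in 9 further lists had an adjusted p under 0.05 in limma, against 0.285% of all genes tested. At an unadjusted p under 0.05, 0 of 15 complex I assembly factors, 0 of 5 complex III assembly factors, 0 of 13 citrate cycle enzymes and 0 of 11 tested regulators of mitochondrial biogenesis passed in either direction. Their median log2 fold changes were 0.23, 0.09, 0.00 and 0.05. Beside the counts of each list, 5.11% of all genes tested were higher and 5.77% lower at that level. Among the 19 tested complex IV assembly factors (median 0.03), 1 was higher and 1 lower. Cox20, a chaperone of the mitochondrially encoded subunit II, had 64, 47 and 56 normalised counts untreated and 59, 100 and 288 treated (log2 fold change 1.10 ± 0.48, unadjusted p 0.0411 in limma), so its excess stood in amisulpride replicate 3. Cox11, a copper chaperone, had 53, 61 and 73 untreated and 44, 37 and 34 treated (-0.68 ± 0.30, unadjusted p 0.0437 in limma).

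Of the 3 complex V assembly factors (median -0.41), Tmem70 had 278, 266 and 312 normalised counts untreated and 201, 174 and 200 treated, and all treated values were lower (log2 fold change -0.57 ± 0.23, unadjusted p 0.0312 in limma). Of 12 tested genes of coenzyme Q synthesis (median 0.10), Coq7, a hydroxylase of that pathway, had 154, 129 and 128 untreated and 108, 75 and 50 treated (-0.87 ± 0.31, unadjusted p 0.0175 in limma). Of 7 tested chain components outside the name rule (median -0.13), Higd1a, a hypoxia-inducible protein that binds complex IV, had 702, 583 and 593 untreated and 1030, 941 and 1102 treated. Its groups did not overlap, and the log2 fold change was 0.71 ± 0.23 with an unadjusted p of 0.00927 and an adjusted p of 0.251 in limma. The electron carrier Cycs had 141, 98 and 153 untreated and 69, 87 and 125 treated (-0.49 ± 0.31), and Cyc1, the cytochrome subunit of complex III, had 97, 208 and 168 untreated and 100, 142 and 157 treated (-0.20 ± 0.33).

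Ndufa4l2 and Higd1a are both known as hypoxia-induced, and a list of 15 hypoxia response genes, Higd1a among them, was examined too. Of these 15, 2 were higher and 1 lower at an unadjusted p under 0.05 in limma, against 5.11% higher and 5.77% lower of all genes tested. The median log2 fold change of the list was 0.20. Ndrg1, a stress-responsive gene, had 182, 281 and 285 normalised counts untreated and 513, 764 and 918 treated (1.54 ± 0.29, adjusted p 0.0611 in limma), and Higd1a, already described, was the other higher one. Egln3, an oxygen-sensing prolyl hydroxylase that hypoxia induces, had 96, 96 and 86 untreated and 73, 62 and 39 treated (-0.71 ± 0.31, unadjusted p 0.0397 in limma). Over the whole list 8 log2 fold changes were above 0 and 7 below, and a change of the list as a set was not tested. Among the biogenesis regulators, the coactivator Pprc1 had 67, 34 and 87 untreated and 56, 36 and 807 treated, and Tfam, which packages mitochondrial DNA, had 32, 53 and 51 untreated and 56, 58 and 152 treated. Both stood highest in amisulpride replicate 3, as did the members above. The coactivator Ppargc1a had at most 7 normalised counts in any library and was not tested.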

How the data were processed

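RNA of cultured hTNFtg SFs was read with QuantSeq 3′ libraries on an Ion Proton. The authors mapped reads to mm10 with TopHat2 and the remainder with Bowtie2, counted them with GenomicRanges and normalised them through metaseqr with DESeq. The values the authors deposited are a score, namely whole numbers that came from scaling each library's counts by its own factor, called normalised counts here. The value of 1 read was estimated from the steps between low values by maximum likelihood, which gave approximate depth and the floor of 3 reads that a count of 0 allows (counting error only). The step of untreated replicate 1 is uncertain. The 12 other columns of values per library, and the authors' p-values, adjusted p-values, fold changes and group means, were not used.

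Log2(normalised count + 1) was fitted with limma 3.58.1 (R 4.3.3) with a mean-variance trend and two-sided tests, for genes with at least 10 in at least 3 of 6 libraries, with Benjamini-Hochberg adjustment over all 12614. Fold changes on this scale understate those of low genes. No test of single values was used, since 3 libraries against 3 cannot go below an exact permutation p of 0.1. The fit was tested on simulated data. Alternatives were the pseudocount, the filter, the scaling, library weights, the block and each library left out. Libraries with the same replicate number in the labels deviated together (correlations over genes 0.23, 0.24 and 0.20, others -0.15 to -0.08), so the numbers were taken to pair the samples. The main fit left this pairing out, so SE, intervals and p-values are unpaired unless the block is named. With the block 263 genes had an adjusted p under 0.05 in limma, against 36 without it.

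Named members were, in each complex, the 3 with the lowest p and the most abundant one, those past the study's thresholds, those counted in amisulpride replicate 3, the isoform groups and the 4 Sdh subunits, apart from 1 item that is not reported here. Other members were named after their values were seen. Genes of other lists were named at an unadjusted p under 0.05, and a few others after their values were seen. Members and lists were chosen with earlier results of these data known. Copies were sought as shared 25-base words in the last 300 bases of GENCODE vM21 transcripts, and motifs in RefSeq promoters.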

Additional observations from a re-analysis of the deposited data

How the results depend on the processing

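The number of genes with an adjusted p under 0.05 in limma over all genes was 36, and became 57 when the pseudocount was 5, 57 without a filter, 66 with quantile normalisation, 195 with library weights, 263 with the replicate block and 0 to 120 with 1 library left out (0 without untreated replicate 2 or 3, 120 without amisulpride replicate 3). No member was among them in any of these fits. At the study's thresholds, 719 genes became 1313 without a filter and 462 with a minimum of 30. Members past these thresholds, 1 in the report, were 0 with a minimum of 30, 2 with the replicate block and 0 to 6 with 1 library left out, the highest without amisulpride replicate 1. Cox6a2, the 1 in the report, was not tested with a minimum of 30 or without any 1 treated library. Members at an unadjusted p under 0.05, 2 in the report, were 1 with a minimum of 30, 6 with the replicate block and 2 to 8 with 1 library left out, again highest without amisulpride replicate 1. The block changed no other call. For complex II the median log2 fold change was -0.03, while the log2 ratio of summed counts was 0.19, or -0.16 without amisulpride replicate 3. The median log2 fold change of complex V was -0.19 with library weights and -0.17 without the assembly factors. That of complex III ran from -0.12 to 0.11 with 1 library left out. A rule of 1.5 times counted 8 members in amisulpride replicate 3 (9.64%, against 9.25% of all genes). With library weights Uqcrc2 turned to -0.08, and without amisulpride replicate 3 Sdhd, Cox6b2 and Uqcrc2 turned to -0.07, 0.01 and -0.25. With 1 library left out Sdhd ran from -0.07 to 1.4, Cox6b2 from -0.68 to 0.01 and Uqcrc2 from -0.25 to 0.70. The cause was not tested. Of the other values of single genes, 225 kept their direction and their side of an unadjusted p of 0.05, 17 moved under it and 1 moved above it, Ndufa4l2 without untreated replicate 1. Depth limits Cox4i2, Cox7a1 and Cox7b2, whose values lay near the floor.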
